A study of Homo sapiens with 4 samples.

Results

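Transcripts annotated for nonsense-mediated decay (NMD) were followed in H1299, an established line of human lung cancer of the non-small-cell type, with and without methylparaben, a preservative that is an ester of a phenolic acid. They are the rows of the deposited transcript table whose transcript type is nonsense_mediated_decay, and they numbered 15283 of 206601 rows and came from 7115 genes. Poly(A)-selected RNA was sequenced from 4 libraries, 2 of cells given ethanol as the control and 2 of cells given 0.5 mM methylparaben for 48 h. Whether libraries of the same group came from different cultures is not stated in the labels, so p-values take in just the spread among these 4 samples, and that spread may be technical.

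NMD is a surveillance pathway that degrades mRNA in which translation stops too early. A stop codon well upstream of the last exon junction leaves an exon junction complex on the RNA, which UPF1, UPF2, UPF3 and the SMG proteins read as a signal for decay. Many such transcripts arise from a poison exon, a cassette exon that brings a stop codon into the reading frame, or from a retained intron. Several RNA-binding proteins control their own amount through such exons. The annotation describes a predicted fate from the position of the stop codon, and the decay itself was not measured here.

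GENCODE release 29 holds each of the 15283 rows, with identical GRCh38 coordinates, and 15270 had an annotated stop codon. The last exon junction lay at least 50 bases after the stop in 15138 of them (99.1%), against 773 of 62780 protein-coding rows with a stop (1.23%). The median distance from the stop to the last junction was 320 bases.

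Reads were present only in rows with bases that no other annotated transcript covers, here called own bases. No row without an own base held a read, among 70749 such rows of the whole table and 9344 such NMD-annotated rows. The remaining 5939 NMD-annotated rows had own bases (38.9%, against 52.5% of protein-coding and 80.3% of retained-intron rows), and 1787 had a read in any library. They held 56373 reads in all. In bulk RNA, fewer cells with a transcript and less of it per cell cannot be told apart. A count says how much RNA covered those bases and carries no junctions, so NMD-annotated RNA and other RNA over the same bases, unspliced RNA included, cannot be told apart.

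The own bases of cassette-exon rows can hold the premature stop codon itself. The following stretches show it in 10 rows that were tested, 6 of them higher with methylparaben, 1 lower and 3 not past the threshold. Each runs from 5′ to 3′ on the transcript's strand, with 15 bases before the stop, the stop codon in capitals and 12 bases after it.
PPP1CB-206: cagtcatctgaaggtTGAactgtgaaagga
PAQR3-206: tatacaaggcatcggTAAaacagtgctgaa
BCLAF1-219: agatacaggcaaagtTGAatcttctgtctt
CLINT1-203: tttggggtattaggaTGAaggaaaagaaga
IST1-209: atcttcatcagtattTGAggacttggttct
KLHL42-202: acttgtcatgtttctTAGgatcagctatca
STEAP1-202: aatttaattcagtcaTGAacactgccaatt
SRSF6-202: gcagccttttgccatTAGacgcagggtgat
U2SURP-203: gaacactggacatacTAGaaactttctttt
RPL26-212: tcaatgtttggtcatTGAagaggcagttga
The sequences are those of the GENCODE 29 transcripts (GRCh38). They lie at chr2:28778428-28778457 on the plus strand for PPP1CB-206, chr4:78933198-78933227 on the minus strand for PAQR3-206 and chr6:136274101-136274130 on the minus strand for BCLAF1-219. The CLINT1-203 stretch is at chr5:157790613-157790642 (minus), IST1-209 at chr16:71924184-71924213 (plus), KLHL42-202 at chr12:27797273-27797302 (plus) and STEAP1-202 at chr7:90163043-90163072 (plus). The last 3 are at chr20:43459287-43459316 for SRSF6-202 and chr3:143024506-143024535 for U2SURP-203, both plus, and chr17:8380668-8380697 for RPL26-212, minus. Each stop lies in an exon that no other annotated transcript covers at the stop, from 52 bases long in CLINT1-203 to 268 in SRSF6-202. Among all 201 tested rows the annotated stop was TGA in 95, TAA in 68 and TAG in 38.

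Library totals ran from 2068486 to 3760982 counts, the deepest being methylparaben replicate 1. CPM give each count relative to the library total, scaled by TMM, the trimmed mean of M values. A count of 0 allows up to 0.798 to 1.45 CPM per library, computed from the library totals before that scaling. Limits and intervals cover counting error only. Markers fixed for a check of the cell type gave 0 reads for all 9 blood and immune and all 6 alveolar and airway genes. Reads were present for 3 of 5 hepatocyte, 2 of 4 neuroendocrine and 1 of 4 endothelial genes. Their sums per library were at most 2.12, 6.17 and 0.529 CPM in that order. A value of 0 may also mean that a gene has few or no own bases. Of 7 epithelial and mesenchymal genes 4 had reads, while KRT19, EPCAM and CDH1 were at 0, so an epithelial identity cannot be read from these counts. Libraries of a group differed by more than sampling noise in both groups (chi-square divided by its degrees of freedom, 4.97 between the ethanol and 10.8 between the methylparaben libraries).

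The first comparison asks how the class as a whole stood in treated cells. NMD-annotated rows together held 0.508% (exact Clopper-Pearson 95% interval 0.499 to 0.517) and 0.533% (0.523 to 0.543) of all counts in ethanol replicates 1 and 2. They held 0.578% (0.570 to 0.585) and 0.532% (0.522 to 0.542) in methylparaben replicates 1 and 2. The second ethanol and second methylparaben libraries were at the same level, and the groups overlapped (exact two-sided permutation p = 0.667, where 2 libraries against 2 cannot go below 0.333). Against the sum of NMD-annotated and protein-coding counts the share was 0.716% and 0.728% with ethanol and 0.924% and 0.897% with methylparaben, without overlap. Scaled by TMM, all NMD-annotated rows summed to 5096 and 5016 CPM with ethanol and 5749 and 5653 CPM with methylparaben, 1.13-fold higher without overlap, while scaling by library size alone gave 1.07-fold with overlap. Outside the mitochondrial genome the share of NMD-annotated plus protein-coding counts was 0.974% and 0.938% against 1.05% and 1.05%, while the share of all counts outside that genome overlapped, at 0.665% and 0.671% against 0.704% and 0.652%. Protein-coding rows, those of the mitochondrial genome included, held 70.5% and 72.7% of all counts in the ethanol and 61.9% and 58.8% in the methylparaben libraries. Outside the mitochondrial genome this fall was not seen. There, protein-coding rows summed to 518029 and 529823 CPM with ethanol and 543900 and 533309 CPM with methylparaben under TMM scaling (1.03-fold). Scaling by library size alone gave 0.971-fold with overlap. Retained-intron rows, a class of transcripts that keep an intron, moved from 2.73% and 2.73% to 4.22% and 3.95%.

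Where in the transcript the own bases lay went with the direction of the change. Each row was placed by the part that holds most of its own bases, with no filter on low counts. The 2241 cassette-exon rows summed to 730 and 625 CPM in ethanol replicates 1 and 2 and to 1073 and 1134 CPM in methylparaben replicates 1 and 2. All treated libraries were above all control libraries, and the mean was 1.63-fold higher (677 ± 74.6 against 1103 ± 42.7 CPM, SD, n = 2). The 210 rows whose own bases sit in an exon that spans an intron of a coding transcript went from 649 and 608 to 1098 and 984 CPM, 1.66-fold higher. The 1244 rows placed as an exon extended into an intron went from 498 and 447 to 710.4 and 693 CPM, 1.49-fold higher. Their own bases are part of an inner exon and lie within an intron of a coding transcript. A cassette exon that another transcript partly covers can therefore fall in this kind. By contrast, the 1182 rows read mostly in their last exon summed to 2692 and 2877 CPM with ethanol and 2415 and 2388 CPM with methylparaben, at 0.862 times the ethanol level. The 853 first-exon rows were at 384 and 364 against 335 and 354 CPM, and their groups overlapped under upper-quartile scaling.

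Each of these sums has an exact permutation p of 0.333, the smallest that 2 libraries against 2 can give. Without the 5 rows with most reads in each kind the factors were 1.71 for cassette exons, 1.83 for intron-spanning exons, 1.40 for extensions and 0.987 for last exons, so the lower level of last-exon rows rested on a few rows. For first exons the direction turned, with 130 and 104 CPM with ethanol and 134 and 149 CPM with methylparaben (1.21). Retained-intron rows of the whole table were 1.58-fold higher in the same libraries (26569 ± 1166 to 41977 ± 3.33 CPM), and their part in the intronic NMD-annotated reads was not tested. The split by position was defined with results of these data known and is a description.

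**Figure D1:**
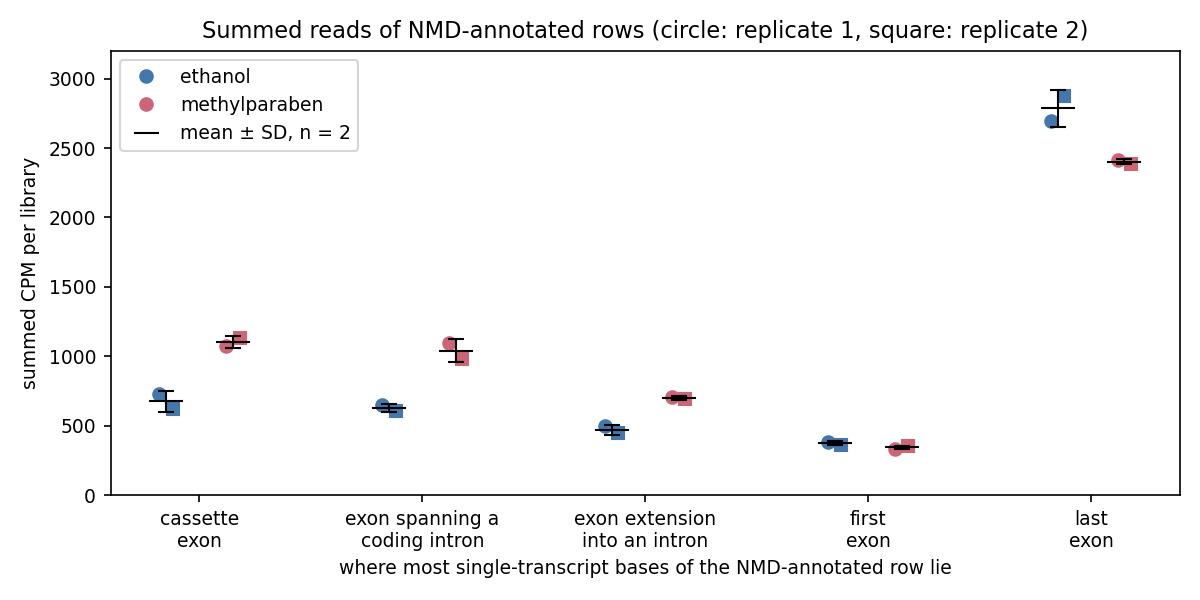
Summed CPM of all NMD-annotated rows in each library (vertical axis) by the part of the transcript that holds most of its own bases (horizontal axis), with points for the libraries and bars for the mean ± SD of 2. Methylparaben libraries lie above ethanol libraries for cassette exons (1073 and 1134 against 730 and 625 CPM), intron-spanning exons and extensions, and below them for last exons.

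The second comparison tested single transcripts. Of 1787 NMD-annotated rows with reads, 201 from 199 genes had enough counts, and these held 79.3% of the reads of the class. With edgeR's quasi-likelihood test and Benjamini-Hochberg adjustment over all 9167 tested transcripts of every class, 61 rose and 30 fell at an adjusted p under 0.05, and 110 did not pass. That is 45.3% called, against 39.4% of all tested transcripts. The share that rose was 30.3% against 20.3%, and the share that fell was 14.9% against 19.1%. The median log2 fold change was 0.33 for NMD-annotated rows, 0.05 for all transcripts, -0.18 for 4662 protein-coding rows (684 rose, 1182 fell) and 1.02 for 1545 retained-intron rows (613 rose, 93 fell). NMD-annotated rows were thus placed between the coding and the retained-intron class. The CPM of the groups did not overlap in 148 of the 201 rows, against 72.2% of all tested transcripts. All 91 called rows were among the 148, so separation of the groups in a called row is no further result. Library-size scaling gave 59 higher and 33 lower, and upper-quartile scaling 66 and 29.

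The filter shaped these counts. It asks for about 4.39 CPM in 2 libraries, and 39 of the 201 rows passed through the methylparaben libraries only, of which 31 rose, while 19 passed through the ethanol libraries only, of which 12 fell. The call of such a row is not independent of the filter. Among the 143 rows that passed in libraries of both groups, 30 rose and 18 fell, and the median was 0.26. Without ethanol replicate 1 the counts were 31 and 12, and without ethanol replicate 2 they were 38 and 17. In all 4 fits that left out a library, 21 rows were called higher and 9 lower.

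**Figure D2:**
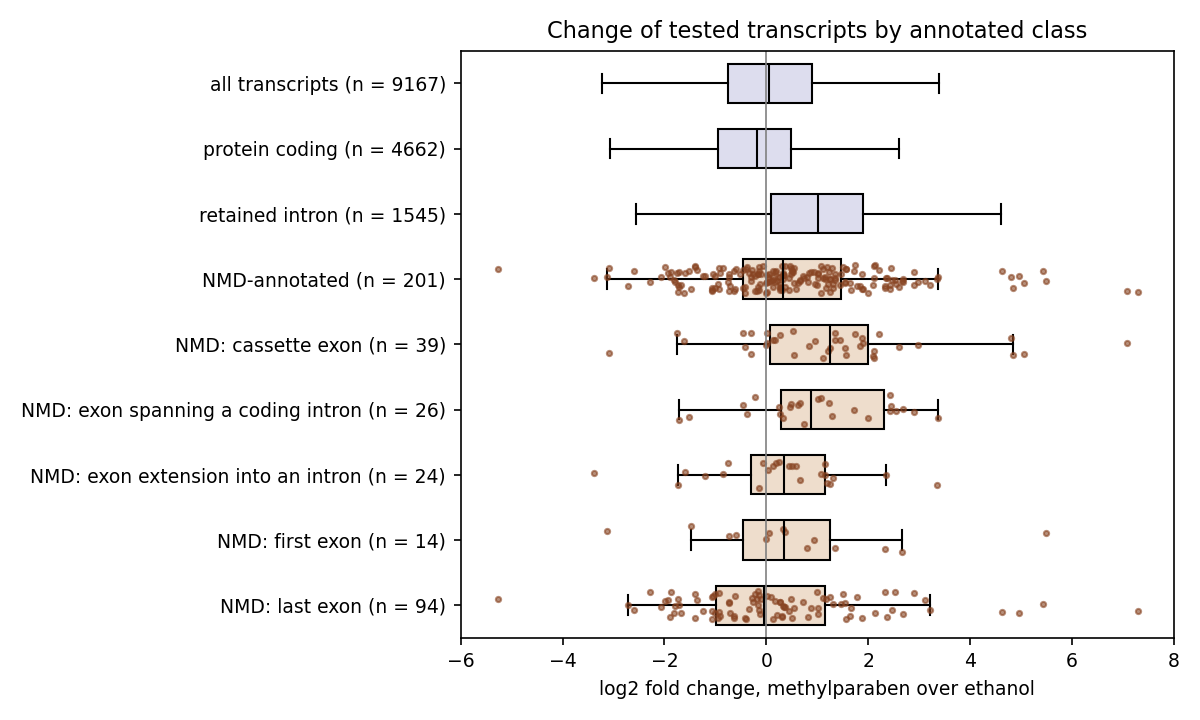
Log2 fold change of methylparaben over ethanol (horizontal axis) for tested transcripts by class (vertical axis, n in brackets). Boxes give the median and quartiles, whiskers reach up to 1.5 box lengths, and points are single NMD-annotated transcripts. The medians are 1.25 for cassette-exon and -0.05 for last-exon rows.

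By position, 16 of 39 tested cassette-exon rows rose (41.0%) and 1 fell (2.56%), with a median log2 fold change of 1.25. Over all tested transcripts 20.3% rose and 19.1% fell. Of 26 intron-spanning rows 12 rose and 2 fell (median 0.89), of 24 extension rows 6 rose and 4 fell (0.35), and of 14 first-exon rows 3 rose and 3 fell (0.35). Among 94 last-exon rows 24 rose and 20 fell, with a median of -0.05. With the rows that passed the filter in libraries of both groups alone, 4 of 21 cassette-exon rows rose (19.0%) and 0 fell (median 0.53). That share of rises was near the 20.3% of all tested transcripts, which were not limited in this way. Of 67 such last-exon rows 13 rose and 12 fell (median -0.14). None of the 4 rows of other position passed.

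Cassette-exon rows of 2 genes for translation had at most 1 read in the control libraries and passed the filter through the methylparaben libraries only. RPL5-204, a row of the gene for a ribosomal protein of the large subunit that also binds 5S rRNA (chromosome 1, 92832064 to 92836354), had 154 own bases in a cassette exon. It had 0 and 0 counts with ethanol and 24 and 13 with methylparaben, at least 10.1-fold higher taking 3 counts over the ethanol group as the limit (adjusted p = 0.00262). GARS-202, from the glycyl-tRNA synthetase gene (chromosome 7, 30622329 to 30632307), had 1 and 0 counts with ethanol and 23 and 18 with methylparaben, a ratio of 33.5 (exact 95% interval 5.69 to 1356, adjusted p = 0.00357). Without methylparaben replicate 1, RPL5-204 had too few counts to be fitted. Neither gene had a read on a protein-coding row in any library, so these exons could not be set against their coding mRNA.

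Another cassette exon changed by a smaller factor. CTNNB1-247, from the gene for beta-catenin, a link of cell junctions and Wnt signaling, had 1.27 and 2.16 CPM with ethanol and 7.15 and 9.25 CPM with methylparaben (2.21 ± 0.62 on the log2 scale, SE, adjusted p = 0.0183). It passed the filter through the methylparaben libraries only. CTNNB1-247 lost its call without any of the 4 libraries (adjusted p 0.0661 to 0.145).

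KIAA1324L-201 and KIAA1324L-206 passed the filter through the methylparaben libraries only. KIAA1324L-201, whose cassette exon is 34 bases long, had 2.97 and 0 CPM with ethanol and 10.6 and 7.71 CPM with methylparaben (2.60 ± 0.85, adjusted p = 0.0338). Its adjusted p was 0.135 without ethanol replicate 2 and 0.163 without methylparaben replicate 1. KIAA1324L-206, another cassette-exon row of that gene named after its values were seen, rose from 2.12 and 1.73 to 9.53 and 7.20 CPM (adjusted p = 0.0182, not called in every fit that left out a library).

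The 6 rows whose stop codons are shown above as higher were chosen after their values were seen. Of these, PPP1CB-206, PAQR3-206 and BCLAF1-219 passed the filter through the methylparaben libraries only. STEAP1-202, given last, passed it through the ethanol libraries only. PPP1CB-206, from the gene for a catalytic subunit of protein phosphatase 1, had 0 and 1 counts with ethanol and 23 and 17 with methylparaben. PAQR3-206 had 0 and 1 against 26 and 21 counts. BCLAF1-219, from a gene for an RNA-associated transcription regulator, had 2.54 and 2.16 against 8.21 and 12.9 CPM. CLINT1-203, from a clathrin adaptor gene, went from 5.51 and 8.63 to 23.6 and 28.8 CPM and IST1-209, from a gene of the ESCRT machinery, from 15.7 and 9.92 to 36.8 and 38.6 CPM. KLHL42-202, from a ubiquitin ligase adaptor gene, went from 16.9 and 10.4 to 35.2 and 29.3 CPM. Their adjusted p ran from 0.00283 for PAQR3-206 to 0.0195 for KLHL42-202. Of these 6 rows PAQR3-206 alone was called in all 4 fits that left out a library. The cassette-exon row that fell, also named after its values were seen, was STEAP1-202, from a metalloreductase gene, with 20 and 12 counts with ethanol and 0 and 4 with methylparaben (adjusted p = 0.0296, not called in every fit that left out a library).

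Cassette exons of 4 genes for RNA-binding and ribosomal proteins did not pass. SRSF6-202 holds the known poison exon of a serine/arginine-rich splicing factor gene and had 69.0 and 57.4 CPM with ethanol and 45.8 and 57.6 CPM with methylparaben (-0.29 ± 0.25, adjusted p = 0.379). Its groups overlapped, while protein-coding rows of SRSF6 had a mean of 1102 CPM with ethanol and 426 CPM with methylparaben. TIA1-211, from a gene for an RNA-binding stress granule protein, had 42.8, 28.9, 30.4 and 27.8 CPM in ethanol 1, ethanol 2, methylparaben 1 and methylparaben 2 (-0.29 ± 0.30, adjusted p = 0.472). U2SURP-203, from a gene of the U2 particle, had 8.05, 11.2, 8.73 and 20.1 CPM in that order (adjusted p = 0.424). RPL26-212, from a ribosomal protein gene, had 9.32 and 9.49 against 17.7 and 15.9 CPM without overlap and an adjusted p of 0.112. These 4 rows are members of the gene lists and were picked among them after their values were seen.

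Rows that read an intron of the coding transcript included the NMD-annotated row with most reads. CAPRIN2-208, from a gene for an RNA-binding protein, had 159 and 127 CPM with ethanol and 326 and 276 CPM with methylparaben, a 2.11-fold increase (adjusted p = 0.00213), and held 96.1% of the reads of its gene. REPS1-210, from a gene of endocytosis, had 2.54 and 7.33 CPM against 56.6 and 45.2 CPM, a 10.3-fold increase (3.37 ± 0.44, adjusted p = 0.000446). COMMD7-204, from a gene of NF-kB and endosomal sorting, went from 1.27 and 1.29 to 10.9 and 8.74 CPM (adjusted p = 0.00520, and 0.0854 without methylparaben replicate 1). RBM6-213, from an RNA-binding protein gene, went from 2.54 and 3.02 to 17.5 and 15.4 CPM (adjusted p = 0.00338). COMMD7-204 and RBM6-213 passed the filter through the methylparaben libraries only. SNX1-202, from a sorting nexin gene of the retromer, went the other way, from 102 and 118 to 39.4 and 26.7 CPM (-1.71 ± 0.26, adjusted p = 0.00102).

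Exon extensions among the named rows were higher with methylparaben, while of all 24 tested extension rows 6 rose and 4 fell. Among the named extensions, SERPINH1-216 passed the filter through the methylparaben libraries only. MRPL32-203, from a gene for a protein of the mitochondrial ribosome, had 89.0 and 84.6 CPM with ethanol and 239 and 171 CPM with methylparaben, a 2.36-fold increase (adjusted p = 0.00177). It held all reads of its gene. SERPINH1-216, from the gene for HSP47, the collagen chaperone of the endoplasmic reticulum (ER), had 0.424 and 1.29 against 8.73 and 9.77 CPM (3.36 ± 0.70, adjusted p = 0.00477, and 0.0535 without ethanol replicate 1).

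First-exon rows moved in both directions. AGPAT5-204 and TIAL1-213 passed the filter through the methylparaben libraries only, and ACOT2-202 through the ethanol libraries only. AGPAT5-204, from a gene of phospholipid synthesis, had 0 and 1 counts with ethanol and 46 and 22 with methylparaben, a ratio of 55.6 (exact 95% interval 9.65 to 2228, adjusted p = 0.00124). Protein-coding rows of AGPAT5 had means of 76.9 CPM with ethanol and 361 CPM with methylparaben. ARIH2-207, from a ubiquitin ligase gene, went from 4.24 and 4.31 to 23.3 and 31.4 CPM, 6.39-fold higher (adjusted p = 0.00125). TIAL1-213, from the gene for TIAR, a relative of TIA1, went from 2.97 and 2.16 to 14.6 and 11.3 CPM (2.33 ± 0.54, adjusted p = 0.00773), while protein-coding rows of TIAL1 had means of 134 and 69.8 CPM. ACOT2-202, from a mitochondrial acyl-CoA thioesterase gene, fell from 19.1 and 9.92 to 1.32 and 2.06 CPM (-3.13 ± 0.62, adjusted p = 0.00373, and 0.0651 without ethanol replicate 1). VIM-203, a row of the intermediate filament gene vimentin, fell from 73.7 and 53.9 to 25.1 and 20.1 CPM (-1.48 ± 0.29, adjusted p = 0.00338), with 77.7% of the reads of its gene.

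Of the 12 largest decreases 10 were in last-exon rows. This kind made up 94 of the 201 tested rows and 20 of the 30 that fell, and 24 of its rows rose. SMURF2-206, from a gene for a ubiquitin ligase that acts on TGF-beta receptors and SMAD proteins (chromosome 17, 64542295 to 64661897), had 308 and 361 CPM with ethanol and 53.7 and 46.8 CPM with methylparaben. That is 6.65-fold lower (-2.72 ± 0.20, adjusted p = 3.11e-05). H2AFJ-202, from a histone H2A variant gene, fell from 239 and 259 to 79.1 and 69.9 CPM (3.35-fold lower, adjusted p = 0.000174). RPF2-204, from a gene of 60S ribosome assembly, fell from 73.7 and 87.6 to 21.7 and 25.2 CPM (adjusted p = 0.000809). These 3 rows held 98.3%, 100% and 100% of the reads of their genes, and the protein-coding rows of these genes had 0 counts. Their coding mRNA was thus not read separately.

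Among lower rows with fewer reads, PRDM13-201, from a gene for a neural transcription factor, went from 38.5 and 51.3 to 15.9 and 10.8 CPM (adjusted p = 0.00336). CEP128-206, from a centriole gene, went from 11.01 and 14.2 to 2.38 and 1.54 CPM (adjusted p = 0.00561, and 0.0501 without ethanol replicate 2). FMO5-205, from a flavin monooxygenase gene, went from 18.2 and 12.1 to 4.24 and 3.08 CPM (adjusted p = 0.0113, and 0.0939 without ethanol replicate 1). CEP128-206 and FMO5-205 passed the filter through the ethanol libraries only.

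Further decreases had a call that rested on single libraries. Of these, NIPSNAP3B-202 passed the filter through the ethanol libraries only. TRDMT1-202, from an RNA methyltransferase gene, had 31.3 and 29.3 CPM with ethanol but 1.32 and 12.9 CPM with methylparaben, so the treated libraries differed widely (adjusted p = 0.0254, and 0.108 and 0.0759 without ethanol replicates 1 and 2). ZNF527-201, from a zinc finger gene, had an adjusted p of 0.0213, which was 0.0820 to 0.113 in 3 fits that left out a library. NIPSNAP3B-202 had an adjusted p of 0.0351 and 0.0521 to 0.312 when any library was left out.

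Last-exon rows that rose included MRNIP-219, from a DNA repair gene, with 83.0 and 133 CPM against 246 and 241 CPM (2.25-fold, adjusted p = 0.00343, and 0.0539 without ethanol replicate 1). BET1-202, from a gene for a SNARE protein of ER to Golgi transport, went from 3.39 and 3.45 to 25.7 and 26.2 CPM, 7.59-fold higher (adjusted p = 0.000810). GPR107-207 had 1 and 1 counts with ethanol and 47 and 21 with methylparaben, a ratio of 27.8 (exact 95% interval 7.40 to 234, adjusted p = 0.00118). ZC3H15-202, from a gene for a zinc finger protein that binds the GTPase DRG1, had 1 and 0 against 55 and 14 counts, a ratio of 56.4 (exact 95% interval 9.79 to 2260, adjusted p = 0.00204). BET1-202, GPR107-207 and ZC3H15-202 passed the filter through the methylparaben libraries only.

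VPS26B-204, from a retromer gene, went from 0.424 and 1.73 to 7.41 and 12.3 CPM (adjusted p = 0.00808, 0.0740 without ethanol replicate 1 and 0.0674 without methylparaben replicate 2). UPP1-206, from the uridine phosphorylase gene, had 0 and 3.45 CPM with ethanol and 10.3 and 12.3 CPM with methylparaben (adjusted p = 0.0291, and 0.106 without ethanol replicate 1). The ethanol libraries of UPP1-206 differed from each other, and its annotation has no exon junction after the stop codon. VPS26B-204 and UPP1-206 passed the filter through the methylparaben libraries only.

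**Figure D3:**
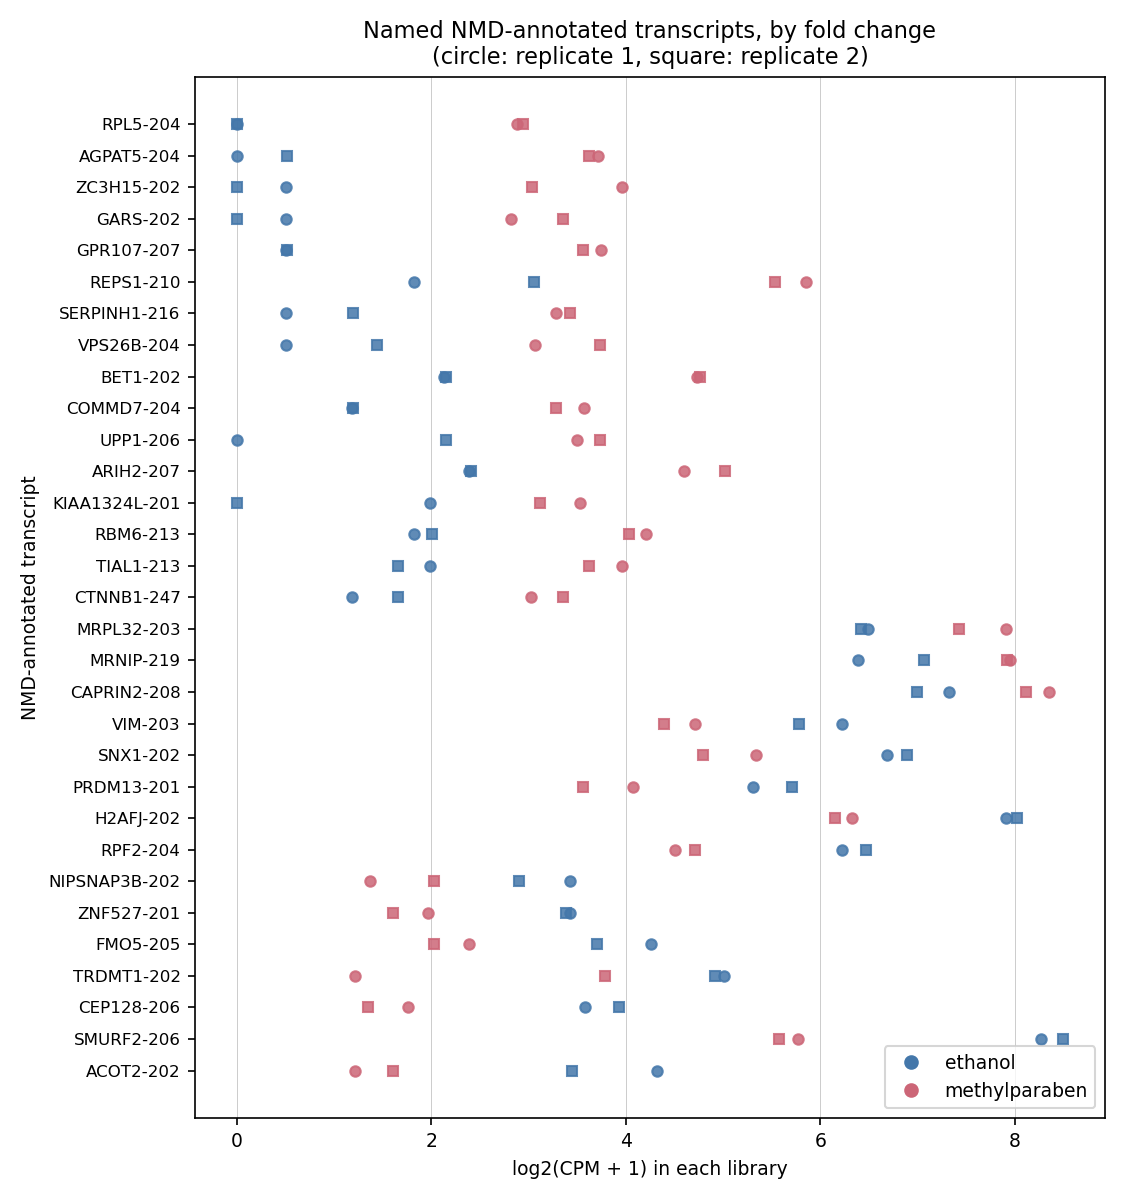
Level of NMD-annotated transcripts named by the rule (vertical axis, sorted by fold change) as log2 of CPM plus 1 (horizontal axis) in each of the 4 libraries, ethanol in blue and methylparaben in red. In every row shown the 2 groups do not overlap, the control level being 0 in both libraries for RPL5-204 and 308 and 361 CPM for SMURF2-206. Groups did not overlap in 72.2% of all 9167 tested transcripts.

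The third comparison asked whether NMD-annotated reads changed relative to the protein-coding reads of the same gene. The ratio is formed within a library, so depth and scaling cancel. It could be tested in 165 genes with at least 20 reads of each kind, summed over the 4 libraries. Among them, 4 genes had 0 NMD-annotated reads with ethanol and reached that minimum through the methylparaben libraries only. The call of such a gene is not independent of the minimum. In a joint edgeR quasi-likelihood model of both kinds of reads, the ratio was higher with methylparaben in 31 genes and lower in 3 at a Benjamini-Hochberg adjusted p under 0.05. Called in either direction were 20.6% of the genes tested, 18.8% higher and 1.82% lower, and the median log2 change of the ratio was 0.85. The same fit for retained-intron reads called 253 of 874 genes higher (28.9%) and 17 lower (1.95%), with a median of 1.03. In all 31 genes the mean NMD-annotated CPM was higher with methylparaben, and in 28 the mean protein-coding CPM was lower. Both directions are favored by the selection on a higher ratio. Over all 165 genes the median log2 ratio of mean CPM was 0.609 for NMD-annotated and -0.355 for protein-coding reads.

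The calls of this test depended on both methylparaben libraries. Without ethanol replicate 1 edgeR called 35 genes higher and 3 lower, and without ethanol replicate 2 it called 39 and 6. Without methylparaben replicate 1 or without methylparaben replicate 2 edgeR called 0 genes, with 44 and 46 genes at an unadjusted p under 0.05, and medians of 0.90 and 0.95. With the replicate number as a block edgeR also called 0, with 50 genes at an unadjusted p under 0.05. Limma on the log2 ratio called 19 genes higher and 2 lower. Genes were grouped by the NMD-annotated row with most reads, placed by its own bases. For cassette exons 14 of 59 ratios rose, 0 fell and the median was 1.35. For last exons 8 of 60 rose, 2 fell and the median was 0.71. For exon extensions 3 of 20 rose, 1 fell and the median was 0.13, for first exons 3 of 13 rose, 0 fell and the median was 0.95, and for intron-spanning exons 3 of 9 rose, 0 fell and the median was 1.23. Of 68 genes tested for both kinds of ratio, 16 had a higher NMD-annotated ratio, and 13 of these also had a higher retained-intron ratio, which was called higher in 22 of the 68 (32.4%). The 2 ratios of a gene share their protein-coding reads.

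In 4 genes among the largest increases, NMD-annotated reads went from few or none with ethanol to shares of 6.06% to 77.3% with methylparaben. TBCK, SPAG16 and PGM2 had 0 such reads with ethanol and reached the minimum for the test through the methylparaben libraries only. Their calls are thus not independent of that minimum. For TBCK, a gene of mTOR regulation, NMD-annotated reads were 0 of 83 reads of both kinds with ethanol, which allows a share of up to 3.61%. With methylparaben they were 77.3% and 57.9% in replicates 1 and 2 (edgeR adjusted p = 0.0108), a ratio at least 69.2-fold higher. Protein-coding reads of TBCK went from 17.7 ± 1.28 to 3.38 ± 1.04 CPM (SD, n = 2). TXNL4A, a gene of the U5 splicing particle, went from 0% and 2.27% to 57.4% and 47.4%, with protein-coding reads at 17.1 ± 2.04 and 5.22 ± 0.108 CPM. SPAG16, a gene of the ciliary axoneme, went from 0 of 359 reads, allowing up to 0.836%, to 9.88% and 6.06%. PGM2, a sugar phosphate mutase gene, went from 0 of 257, allowing up to 1.17%, to 9.66% and 6.38%. In these 4 genes both treated shares exceeded the limit or values of the controls.

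CENPC, a centromere gene, moved from 13.9% and 13.2% to 68.8% and 73.3% NMD-annotated reads (log2 ratio change 3.90 ± 0.72, edgeR adjusted p = 0.0157). KIAA1324L went from 9.23% and 2.05% to 44.2% and 43.3% (3.86 ± 0.65) and TTC14, a gene for a tetratricopeptide repeat protein, from 15% and 2.60% to 57.6% and 50% (3.74 ± 0.74). TANK, an adaptor gene of innate immune signaling, went from 15% and 27.3% to 91.5% and 57.1% (4.32 ± 1.16, adjusted p = 0.0460), the widest spread between treated libraries of these genes, and its adjusted p was 0.420 without methylparaben replicate 1. Each of the 8 genes lost its call without methylparaben replicate 1 or without methylparaben replicate 2, with adjusted p from 0.0959 to 0.420.

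The ratio fell in 3 genes, in which protein-coding reads were higher with methylparaben. PCBP2, a gene for a poly(C)-binding RNA regulator, went from 16.98% and 15.9% to 3.31% and 3.12% NMD-annotated reads (-2.53 ± 0.50, adjusted p = 0.0165) while protein-coding reads went from 20.8 ± 2.99 to 62.8 ± 1.28 CPM. PCNX2, a gene for a pecanex membrane protein, went from 16.2% and 8.89% to 1.93% and 0.581% (-3.45 ± 0.73). CREBZF, a gene for a leucine zipper regulator of stress transcription factors, went from 44.9% and 44.3% to 26.4% and 25.6% (-1.19 ± 0.33, adjusted p = 0.0484). The CREBZF row itself did not pass (55.9 and 57.0 against 73.3 and 61.7 CPM, adjusted p = 0.391), and its protein-coding reads went from 70.1 ± 2.12 to 192 ± 17.98 CPM. All 3 calls were lost without either methylparaben replicate (adjusted p from 0.0959 to 0.175), that of PCNX2 also without ethanol replicate 1 (0.0516) and that of CREBZF without any library.

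**Figure D4:**
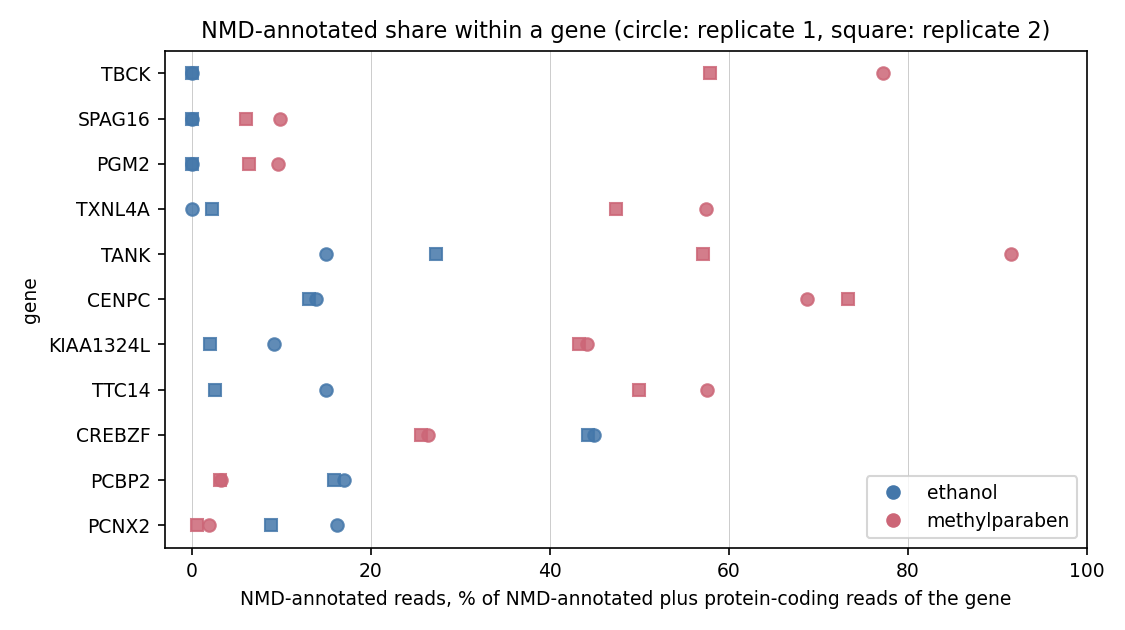
NMD-annotated reads as a percent of NMD-annotated plus protein-coding reads of the gene (horizontal axis) for the 11 named genes (vertical axis) in each library. Methylparaben shares lie above ethanol shares for 8 genes, as for CENPC at 68.8% and 73.3% against 13.9% and 13.2%, and below for CREBZF, PCBP2 and PCNX2. The shares of the groups did not overlap in 66.1% of the 165 genes.

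By function, few NMD-annotated rows of the 15 gene lists could be tested. The NMD factors had 7 such rows, 1 with reads and 0 tested, and the exon junction complex had 12, 2 with reads and 0 tested. Other rows of these genes could be read. Of 10 tested other rows of NMD factor genes 4 rose and 1 fell (median 0.61), where 39.4% of all tested transcripts were called, 20.3% higher and 19.1% lower. SMG5-201, a coding row for a factor that recruits decay enzymes, was at 21.2, 17.7, 35.5 and 90.5 CPM in ethanol 1, ethanol 2, methylparaben 1 and methylparaben 2 (1.68 ± 0.42, adjusted p = 0.0110). SMG1-202, a coding row for the kinase that phosphorylates UPF1, was at 515, 552, 613 and 552 CPM (adjusted p = 0.543). Of 8 other rows of exon junction complex genes 4 rose and 2 fell (median 0.87), against the same shares over all tested transcripts. These rows mix protein-coding rows, of which 14.7% rose in the whole table, with retained-intron rows, of which 39.7% rose. RBM8A-204, a coding row for the core protein Y14, fell from 286 and 310 to 46.1 and 44.7 CPM (-2.71 ± 0.19, adjusted p = 3.02e-05), whereas RNPS1-213, a retained-intron row, rose from 9.74 and 9.06 to 46.1 and 55.5 CPM (adjusted p = 0.000450). These 4 rows were chosen after their values were seen.

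In the lists of RNA-binding proteins, 0 of 1 tested NMD-annotated rows of SR proteins and CLK kinases passed and 1 of 2 of hnRNP proteins rose (TIAL1-213). Among spliceosome components, which had 64 NMD-annotated rows and 7 with reads, PRPF4B-205 had 131, 132, 155 and 140 CPM (adjusted p = 0.494). Summed over all their NMD-annotated rows, SR proteins and CLK kinases were at 72.0 and 58.7 CPM with ethanol and 47.6 and 66.8 CPM with methylparaben, and spliceosome components at 157 and 159 against 201 and 189 CPM. The first pair overlapped and the second did not.

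In the translation lists, the tested row of aminoacyl-tRNA synthetases rose (GARS-202), 1 of 2 ribosomal protein rows rose (RPL5-204), and 0 of 72 rows for translation initiation factors could be tested. Summed NMD-annotated rows of the synthetases were at 0.424 and 0.431 CPM with ethanol and 7.94 and 10.3 CPM with methylparaben. With methylparaben most of these reads were from GARS-202. Those of ribosomal proteins were at 13.1 and 12.9 against 27.8 and 30.3 CPM. Of the textbook NMD target genes the tested row rose (UPP1-206). Other rows of those genes, not split by class, had 12 of 19 higher and 0 lower, with a median of 1.99. Over all tested transcripts 20.3% were higher and 19.1% lower.

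The ATF4 and ER stress list had 22 NMD-annotated rows, 3 with reads and 0 tested. Of 41 other rows of these genes, not split by class, 29 rose and 2 fell, against 20.3% and 19.1% of all tested transcripts. Cholesterol and lipid synthesis had 42 (3 with reads), cell cycle and DNA replication 67 (10 with reads) and the nuclear-encoded respiratory chain 71 (12 with reads), all with 0 tested. The summed level of the respiratory chain rows was 11.01 and 10.8 CPM with ethanol and 4.50 and 6.17 CPM with methylparaben. In the proteasome and ubiquitin list 0 of 1 tested rows passed (PSMA2-202, adjusted p = 0.520), and in the cytoskeleton and adhesion list CTNNB1-247 rose and VIM-203 fell.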

How the data were processed

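Per the labels' protocols, poly(A) RNA was pulled down from Trizol extracts and made into TruSeq libraries. The deposited files hold unnormalized read counts for each annotated transcript, FPKM values, log2 of FPKM plus 1, and a p-value with adjusted p-value per transcript of a comparison that the file headers do not name. The submitters' processing notes list GRCh38, DESeq2, limma and edgeR without roles. Which aligner and counter were used is not stated in those notes or in the headers. By the authors' deposited table, 70 of the 91 NMD-annotated rows called here had an adjusted p under 0.05.

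Counts were joined to the annotation by transcript ID without version. Transcripts were filtered with filterByExpr (minimum count 10, minimum total 15), scaled by TMM and compared, two-sided, by edgeR (version 4.0.16, under R 4.3.3) with its quasi-likelihood test, adjusted over 9167 transcripts. The SE is the log2 fold change over the square root of F. The within-gene ratio was tested in 8 columns (4 libraries by 2 kinds of reads) with library, kind and kind by treatment as terms. Own bases and stop codons came from GENCODE 29 and were computed over all transcripts regardless of strand, so antisense RNA cannot be told apart. DESeq2 1.42.0 and limma 3.58.1 gave alternatives. Scripts were tested on simulated data.

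Named rows followed a rule: the 12 largest increases and decreases among called rows at a mean of 5 CPM or more, the 8 largest ratio increases and decreases with at least 100 counts, up to 4 called rows per list, tested NMD factor rows and the 5 rows of highest mean CPM. Members, lists and splits were chosen with earlier results of these data known. Replicate numbers are not stated to pair cultures. Results of 2 rows that the rule names are not reported here.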

Additional observations from a re-analysis of the deposited data

How the results depend on the processing

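All 91 called transcripts kept their direction under every scaling, test, filter and left-out library in which they were fitted. They stayed called in 91 under RLE scaling, 60 with DESeq2, 84 with limma voom, 72 with no filter and 41 without ethanol replicate 1. DESeq2 called 41 higher and 19 lower. Leaving out a library gave 31 to 53 higher and 12 to 26 lower. A filter on the mean over all libraries, chosen after seeing the data, gave 45 higher and 25 lower of 153. With the replicate block 55 were higher and 22 lower. Limma on log2 FPKM gave 62 and 24 with a pseudocount of 1 and 53 and 20 with 0.1. Members with at least 100 own bases gave 56 and 30 of 189.

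For the NMD-annotated ratio, a minimum of 10 reads gave 20 genes higher, a minimum of 50 gave 13 higher and 1 lower, limma gave 19 higher, and all other rows of the gene as reference gave 10 lower. The replicate block gave 0 higher and 0 lower, and left-out libraries gave 0 to 39 higher and 0 to 6 lower. For the retained-intron ratio, a minimum of 50 gave 147 higher and 2 lower, limma 125 and 10, a minimum of 10 gave 10 lower, the replicate block 11 lower, and left-out libraries 83 to 135 higher and 0 to 8 lower. Differences between replicates 1 and 2 correlated at -0.125 across transcripts between the groups, so the crossed replicate block was added, with 57 transcripts higher and 26 lower and 0 ratios higher and 0 lower. The share of all counts differed by 0.0342 percentage points, by 0.0112 to 0.0571 without a library, by 0.0106 of counts outside the mitochondrial genome and by 0.188 against protein-coding plus NMD-annotated counts. The cause of these shifts was not tested. At these depths 1586 rows with reads were too sparse to test.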
